A study of Rattus norvegicus with 18 samples.

Results

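The genes described here are 35 genes of sterol and fatty acid synthesis in the rat nucleus pulposus, the soft centre of the intervertebral disc. They comprise 18 genes for enzymes of the mevalonate and sterol pathway, 11 genes for enzymes that make, activate, elongate or desaturate fatty acids, and 6 genes for proteins that regulate these pathways or carry sterol. The members were chosen by gene symbol, and the row with the highest mean level stood for a symbol listed more than once. All 35 were found among the 18923 genes of the table, and 34 were among the 11708 genes that could be tested. Elovl6, which encodes a fatty acid elongase, was at or below 0.205 FPKM in each of the 9 libraries and was not tested.

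The study took discs from rats aged 2, 10 and 20 months and measured RNA and the m6A mark, a methyl group on its adenines, in the nucleus pulposus. The labels name no strain, sex, genotype or treatment, so that age is the only stated difference between the groups, and they do not say whether a library came from 1 animal or from pooled tissue. The values analysed are those of the 9 input libraries, 3 per age, which hold poly(A) RNA that was not immunoprecipitated, and the 9 immunoprecipitated libraries were not analysed here. Levels are in FPKM, a level scaled for transcript length and for the mapped fragments of the library, and changes are log2 differences of FPKM + 1, a scale that understates the change of low genes. Adjusted p-values come from limma fitted over all tested genes, and since nothing says that the libraries of an age came from separate animals, they measure the spread between these libraries.

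Cells build cholesterol from acetyl-CoA through mevalonate, farnesyl diphosphate, squalene and lanosterol, and they build long-chain fatty acids from the same precursor. Both routes are transcribed under the sterol regulatory element binding proteins (SREBPs), which are bound to the escort protein Scap in the endoplasmic reticulum. The anchor proteins Insig1 and Insig2 hold this complex there. When membrane sterol is low, Scap escorts the SREBPs out, and they are cut and released to the nucleus. The disc has almost no blood vessels, so that its cells live at low oxygen and far from lipids carried in the blood, and the sterol pathway itself uses oxygen at several steps.

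The libraries held 3.53 to 5.04 gigabases of aligned sequence, the lowest being replicate 1 at 20 months. The 20-month libraries stood apart from the others: 80.1 to 80.9% of their aligned bases lay on the listed transcripts against 85.6 to 86.1% in the other 6, and the median log2 change of all tested genes from 2 to 20 months was -0.20. Values were therefore also rescaled by median-of-ratios factors, which moved that median to -0.01, and results are given with the deposited scaling, with the median-of-ratios value beside a printed change where it ended the call, turned the sign or moved the change by over 1.5 times. Markers of the labelled tissue were present in part: the notochordal factor Tbxt stood at 2097 to 2486 FPKM and the keratin gene Krt8 at 3225 to 4573 FPKM, whereas Foxa1, Foxa2, Pax1 and Shh stayed under 1 FPKM in every library. The markers of the tissue moved with age too. Of 11 tested, 9 were lower and 0 higher at 10 against 2 months (9 and 0 after scaling), with a median of -0.41 (-0.45). Among all tested genes 11.4% were lower and 19.0% higher (14.5% and 15.2%). At 20 against 2 months 7 markers were lower and 1 higher (6 and 4), beside 49.6% and 18.6% of all tested genes (32.2% and 30.4%). At 20 against 10 months 5 markers were lower and 4 higher (3 and 8), beside 53.3% and 11.4% (26.6% and 25.9%). The summed FPKM of the markers was 80.0% of the 2-month sum at 10 and 81.7% at 20 months (77.9% and 95.1% after scaling), and their part in the members' values was not tested. In bulk tissue, fewer cells of a type and less RNA per cell cannot be told apart.

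Under the deposited scaling most of the sterol and fatty acid genes were lower at 10 than at 2 months and lower again at 20 months. Of the 34 tested members, 20 were lower and 0 were higher at 10 than at 2 months (21 and 0 after median-of-ratios scaling, limma, adjusted p under 0.05). At an unadjusted p under 0.05 limma gave 24 lower and 0 higher. Among all tested genes 11.4% were lower and 19.0% were higher in that comparison (14.5% and 15.2% after median-of-ratios scaling). At 20 against 2 months 31 members were lower and 1 was higher (29 and 1 after scaling), beside 49.6% lower and 18.6% higher among all tested genes (32.2% and 30.4% after scaling). At 20 against 10 months 28 members were lower and 2 were higher (19 and 4 after scaling), beside 53.3% lower and 11.4% higher among all tested genes (26.6% and 25.9% after scaling). The share of members that fell from 10 to 20 months is thus to be read against a background in which most called genes fell under the deposited scaling. The median log2 change of the members was -0.35 at 10 and -0.69 at 20 months against 2 months (-0.38 and -0.48 after scaling), beside 0.04 and -0.20 (0.01 and -0.01) for all tested genes.

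Under the deposited scaling the levels formed a staircase in most members. In 22 of 34 members every 2-month library was above every 10-month library and every 10-month library above every 20-month library, beside 14.6% of all tested genes, and the count was 17 after median-of-ratios scaling, beside 10.5%. Comparing ages pairwise, the libraries of the older age lay below all those of the younger in 27 of 34 members at 10 against 2 months (21.5% of all tested genes), in 31 at 20 against 2 months (51.0%) and in 27 at 20 against 10 months (55.3%), while Fasn alone lay above at 10 against 2 months (32.3%). Of the 22 members, 14 were sterol genes, 5 were fatty acid genes and 3 were regulators or carriers. The 17 after scaling were 12 sterol genes, 2 fatty acid genes and 3 regulators or carriers. Called as lower in both steps were 18 members (12 after scaling), beside 7.83% (5.56%) of all tested genes. By role these were 12 of 18 sterol genes, 5 of 10 tested fatty acid genes and 1 of 6 regulators or carriers (10, 1 and 1 after scaling). The summed FPKM of the 18 sterol genes went from 378 ± 3.64 in the 2-month through 273 ± 3.35 in the 10-month to 198 ± 21.4 in the 20-month libraries (SD, n = 3), which put the 20-month sum at 52.4% of the 2-month sum (61.0% after scaling). The sum over the 11 fatty acid genes was 287 ± 2.72, 213 ± 3.55 and 188 ± 3.08 FPKM, or 74.1% of the 2-month sum at 10 and 65.3% at 20 months. After scaling these shares were 72.2% and 76.0%, so that the order of the 10- and 20-month sums turned. The sum over the 6 regulators and carriers was 196 ± 2.37, 191 ± 1.9 and 222 ± 17.1 FPKM. Only the regulator sum was higher at 20 than at 2 months, and Insig1 made up most of it.

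**Figure D1:**
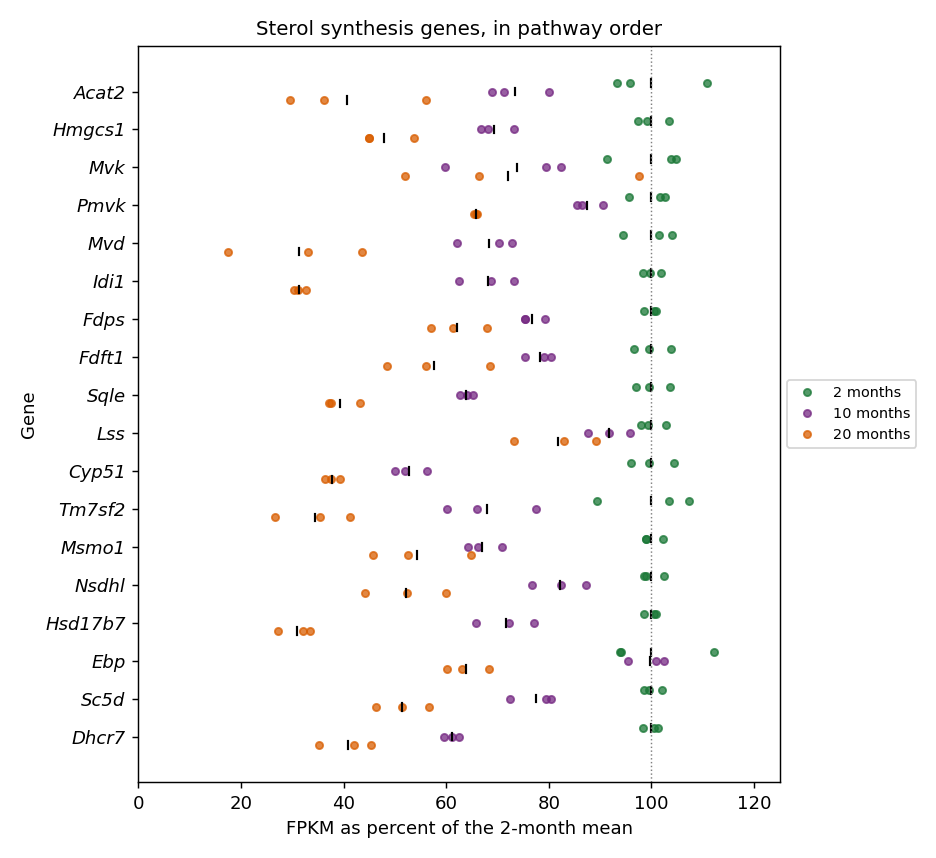
Level of each of the 18 sterol pathway genes in each library, as a percent of that gene's mean FPKM at 2 months; each point is 1 library, coloured by age, the black ticks are the means of 3 libraries, and the genes follow the order of the pathway. The 20-month means lie between 30.9% (Hsd17b7) and 81.8% (Lss), and the 10-month points lie between the other ages for most genes.

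Signs of other cell types moved with age as well. The adipocyte marker sum was 127 ± 2.40, 86.1 ± 1.34 and 47.7 ± 3.76 FPKM at 2, 10 and 20 months, and nearly all of it was lipoprotein lipase (Lpl), which stood at 119.7 to 124 FPKM in the 2-month and 38.6 to 45.4 FPKM in the 20-month libraries. The defining adipocyte markers Adipoq and Plin1 were at or below 0.179 and 0.0314 FPKM in all 9 libraries, and 8 of the 12 markers stayed under 1 FPKM throughout. Only 2 of the 12 could be tested, and they went opposite ways. At 20 against 2 months 1 was lower (-1.53) and 1 higher (0.85), and both calls held after scaling. Red cell markers summed to 82.9 to 93.2 FPKM in the 2-month, 9.57 to 10.6 in the 10-month and 36.6 to 42.5 in the 20-month libraries. Skeletal muscle markers summed to 256 FPKM in replicate 3 at 20 months against 4.85 and 5.24 in the other 20-month libraries. Without that library 31 members were lower at 20 than at 2 months and 27 lower at 20 than at 10 months. The part of the red cell and macrophage markers in the members' values was not tested, and the latter summed to 11.4 to 16.8 FPKM, with 8 of 10 markers under 1 FPKM. All 5 endothelial markers listed were under 1 FPKM in every library.

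Promoter sequences were looked up because so many members moved together. RefSeq promoter windows of the GRCr8 assembly, 250 bases before to 50 bases after the start of the gene, were found for 28 of the 35 members. Pmvk, Fdft1, Sqle, Acaca, Fasn, Elovl6 and Stard4 had no entry. Srebf1 had 2 entries, of which the first listed was used. Each window was searched on both strands for the classical sterol regulatory element core (TCACNCCAC), the E-box CACGTG and the CCAAT box. The last is a site of the factor NF-Y, which binds beside SREBPs at many sterol genes. It was counted in either orientation, as CCAAT or as the inverted ATTGG on the gene's own strand. A CCAAT box in either orientation was present in 21 of 28 member windows (75%), namely 12 of 15 sterol, 5 of 8 fatty acid and 4 of 5 regulator or carrier windows, and in 37.5% of all 33469 promoter windows of that length. The windows of Msmo1, Acly, Fads1 and Acsl3 held it only as CCAAT and not inverted. The sterol windows without a CCAAT box in either orientation were those of Acat2, Cyp51 and Dhcr7. Among these, Cyp51 and Dhcr7 changed by -1.32 and -1.21 at 20 against 2 months. Mvk and Nsdhl held the most boxes, 5 each, and Mvk was called in no comparison. The sterol element core was in 0 of 28 member windows and in 1.117% of all windows, and the E-box was in 4 of 28 (Sc5d, Elovl5, Scap and Insig1) and in 6.42% of all. Among the 9053 windows of tested genes, matched by symbol, the E-box share was 9.665%. The shares there were 37.39% for the CCAAT box in either orientation and 1.105% for the core. A shorter core, TCACNCCA, and the element TCACACGAG were added after the windows had been read. TCACACGAG was taken as the Fdps type of the sterol element, so that its match in the Fdps window followed from that choice. The first lay in the Msmo1 and Srebf2 windows (3.89% of all windows), and the second in the Fdps window (0.123% of all). There it lay between an inverted CCAAT box (ATTGG) and a direct one (CCAAT). These matches are descriptions of the letters and not evidence of binding. The 6 windows below are printed 5′ to 3′ on the gene's own strand in lower case, with every match to a searched motif, on either strand, in capitals. Idi1 and Hsd17b7 are shown as sterol genes with deep falls and several inverted CCAAT boxes, Fdps for its element, Fads2 as the member that fell furthest and holds no match, Srebf2 as the regulator with the shorter core, and Insig1 as the member that rose. They lie at chr17:66547475-66547774 on the minus strand (Idi1), chr13:84722705-84723004 on the minus strand (Hsd17b7), chr2:176804767-176805066 on the minus strand (Fdps), chr1:216171984-216172283 on the minus strand (Fads2), chr7:115543057-115543356 on the plus strand (Srebf2) and chr4:8057720-8058019 on the minus strand (Insig1).
Idi1: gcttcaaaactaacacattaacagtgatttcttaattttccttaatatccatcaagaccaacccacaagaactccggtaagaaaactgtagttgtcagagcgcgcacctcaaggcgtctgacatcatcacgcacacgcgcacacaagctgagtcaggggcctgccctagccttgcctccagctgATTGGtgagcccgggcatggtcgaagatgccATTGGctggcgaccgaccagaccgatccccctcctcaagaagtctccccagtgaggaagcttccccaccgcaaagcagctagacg
Hsd17b7: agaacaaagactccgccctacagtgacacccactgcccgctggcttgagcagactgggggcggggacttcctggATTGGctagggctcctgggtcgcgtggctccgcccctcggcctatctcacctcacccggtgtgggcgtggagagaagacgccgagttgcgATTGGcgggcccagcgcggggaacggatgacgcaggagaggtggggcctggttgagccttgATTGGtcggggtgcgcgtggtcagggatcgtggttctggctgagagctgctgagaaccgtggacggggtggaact
Fdps: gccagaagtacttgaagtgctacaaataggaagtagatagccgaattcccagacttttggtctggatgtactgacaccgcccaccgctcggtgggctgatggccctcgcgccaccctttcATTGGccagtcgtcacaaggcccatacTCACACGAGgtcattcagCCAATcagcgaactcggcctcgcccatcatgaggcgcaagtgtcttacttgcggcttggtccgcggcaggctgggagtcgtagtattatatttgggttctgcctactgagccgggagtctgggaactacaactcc
Fads2: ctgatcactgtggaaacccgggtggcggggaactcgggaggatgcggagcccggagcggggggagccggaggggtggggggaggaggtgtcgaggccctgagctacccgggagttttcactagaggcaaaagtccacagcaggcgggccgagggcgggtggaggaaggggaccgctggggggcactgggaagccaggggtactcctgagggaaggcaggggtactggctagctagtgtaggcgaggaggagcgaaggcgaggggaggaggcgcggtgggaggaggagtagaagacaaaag
Srebf2: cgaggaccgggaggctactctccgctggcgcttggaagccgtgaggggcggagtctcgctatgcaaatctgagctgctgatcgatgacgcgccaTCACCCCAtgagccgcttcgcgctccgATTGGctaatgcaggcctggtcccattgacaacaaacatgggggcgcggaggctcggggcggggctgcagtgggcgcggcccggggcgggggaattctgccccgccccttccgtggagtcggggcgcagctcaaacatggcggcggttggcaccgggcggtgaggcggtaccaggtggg
Insig1: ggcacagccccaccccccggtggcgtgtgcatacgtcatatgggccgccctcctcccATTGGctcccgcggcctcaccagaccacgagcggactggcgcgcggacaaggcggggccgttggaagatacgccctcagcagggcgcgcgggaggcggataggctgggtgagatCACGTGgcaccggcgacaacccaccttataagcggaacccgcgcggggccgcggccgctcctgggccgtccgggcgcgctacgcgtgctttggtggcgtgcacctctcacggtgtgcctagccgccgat

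The first enzymes of the mevalonate route were lower with age. Hmgcs1, the cytosolic synthase that joins acetyl-CoA to acetoacetyl-CoA, measured 41.4, 39.7 and 39 FPKM at 2 months, 29.3, 27.3 and 26.8 at 10 months and 21.5, 18 and 18 at 20 months. The age groups did not overlap, and each step was downwards. Its log2 change was -0.51 (SE 0.07, adjusted p = 0.000761) at 10 and -1.03 (SE 0.07, adjusted p = 2.15e-06) at 20 against 2 months, and -0.82 (adjusted p = 6.36e-06) for the latter after median-of-ratios scaling. Acat2, the cytosolic thiolase one step earlier, measured 2.8, 2.73 and 3.24 FPKM at 2 months, 2.34, 2.01 and 2.08 at 10 months and 1.64, 0.865 and 1.06 at 20 months, so that all groups were apart although the gene is low. Its change at 10 against 2 months missed the threshold (adjusted p = 0.0881), and that at 20 months was -0.86 (SE 0.13, adjusted p = 0.000275).

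The kinases of the route differed from each other. Mvk, mevalonate kinase, measured 4.22, 4.79 and 4.84 FPKM at 2 months, 2.76, 3.8 and 3.67 at 10 months and 4.5, 3.06 and 2.4 at 20 months. The 20-month libraries were spread across the range of the younger ones, replicate 1 being the highest and replicate 3 the lowest of that age, and no comparison passed (-0.41 at 20 against 2 months, adjusted p = 0.0555, and -0.23 after scaling). Without replicate 1 at 20 months the call was made (-0.59, adjusted p = 0.00358). Pmvk, phosphomevalonate kinase, was tighter, with 19.9, 18.6 and 19.7 FPKM at 2 months, 16.8, 16.6 and 17.6 at 10 months and 12.8, 12.7 and 12.8 at 20 months. Its groups did not overlap, and it fell by 0.18 in the first and by 0.39 in the second step on the log2 scale (adjusted p = 0.0105 and 5.46e-05). After scaling the steps were -0.22 (adjusted p = 0.005) and -0.15 (adjusted p = 0.0176), the second being the smaller.

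The next enzymes were also lower at 20 months. Mvd, the decarboxylase that makes isopentenyl diphosphate, was low throughout, with 1.98, 2.18 and 2.12 FPKM at 2 months, 1.47, 1.3 and 1.52 at 10 months and 0.693, 0.911 and 0.366 at 20 months. Its groups did not overlap, and the 20-month mean was 31.4% of the 2-month mean, with a log2 change of -0.91 (SE 0.12, adjusted p = 0.000137). Every 20-month library of Mvd was under 1 FPKM, so that it passed the filter through the younger libraries, where it was higher. Idi1, the isomerase that supplies dimethylallyl diphosphate, measured 12.3, 12.5 and 12.8 FPKM at 2 months, 9.18, 8.63 and 7.84 at 10 months and 3.81, 3.9 and 4.09 at 20 months. These 9 values fell into 3 separate bands. The change was -0.51 (SE 0.06, adjusted p = 0.000366) at 10 and -1.46 (SE 0.06, adjusted p = 1.44e-07) at 20 against 2 months, and -1.27 (adjusted p = 3.11e-07) for the latter after scaling. Fdps, farnesyl diphosphate synthase, the last enzyme before the sterol, dolichol and prenylation branches part, measured 59.1, 58 and 59.4 FPKM at 2 months, 44.3, 44.3 and 46.6 at 10 months and 39.9, 36.1 and 33.6 at 20 months. It fell in both steps under the deposited scaling (-0.38, SE 0.06, adjusted p = 0.00144, then -0.30, SE 0.06, adjusted p = 0.00155), whereas the second step was -0.05 (adjusted p = 0.47) after median-of-ratios scaling.

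The enzymes that commit farnesyl diphosphate to sterols were also lower. Fdft1, squalene synthase, measured 35.5, 33 and 34 FPKM at 2 months, 25.7, 27 and 27.5 at 10 months and 23.4, 19.2 and 16.5 at 20 months. Its groups did not overlap, but the 20-month libraries spread widely, and the first step (-0.34, SE 0.10, adjusted p = 0.031) was no longer called when any 1 of the 6 libraries of 2 and 10 months was left out (adjusted p = 0.0609 to 0.0944). The change from 2 to 20 months was -0.78 (SE 0.10, adjusted p = 0.00012). Sqle, squalene epoxidase, an oxygen-using and rate-limiting enzyme, measured 26.9, 25.9 and 25.2 FPKM at 2 months, 17, 16.3 and 16.6 at 10 months and 11.2, 9.76 and 9.64 at 20 months. Its groups were far apart compared with their spread. The second step was -0.66 (SE 0.06, adjusted p = 1.94e-05) and -0.42 (adjusted p = 0.000234) after scaling. Lss, lanosterol synthase, had the smallest 20-month change of the sterol genes, with 13.4, 13.8 and 13.2 FPKM at 2 months, 12.9, 12.3 and 11.8 at 10 months and 12, 11.2 and 9.85 at 20 months. Its 10- and 20-month libraries overlapped, and its change at 20 against 2 months, -0.27 (SE 0.07, adjusted p = 0.00557), was -0.07 (adjusted p = 0.359) after scaling.

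Enzymes that turn lanosterol into cholesterol made up the largest block of the sterol genes. Cyp51, the lanosterol demethylase, a cytochrome P450 that uses oxygen, measured 25.1, 26.3 and 24.2 FPKM at 2 months, 13.1, 14.2 and 12.6 at 10 months and 9.87, 9.45 and 9.14 at 20 months. The groups were separate, with the wider gap between 2 and 10 months. Its first step of -0.87 (SE 0.05, adjusted p = 2.30e-05) was larger than its second of -0.44 (SE 0.05, adjusted p = 0.00012), which was -0.21 (adjusted p = 0.00886) after scaling, and the difference between the steps was called under both scalings (0.43, adjusted p = 0.00648, and 0.70, adjusted p = 0.000888). Tm7sf2, a sterol reductase that acts on the product of Cyp51, measured 3.44, 4.14 and 3.98 FPKM at 2 months, 2.32, 2.99 and 2.54 at 10 months and 1.59, 1.02 and 1.36 at 20 months. The groups did not overlap. Its fall by 10 months (-0.43, SE 0.11, adjusted p = 0.0199) was lost without replicate 2 or 3 at 2 months or replicate 1 or 3 at 10 months (adjusted p = 0.0593 to 0.0738), while that by 20 months was -1.07 (SE 0.11, adjusted p = 3.32e-05).

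The demethylation complex that follows moved in the same direction. Msmo1, the methylsterol oxidase, had the highest gene-level FPKM of the sterol genes of the set at 2 months. It measured 67.9, 65.7 and 65.7 FPKM at 2 months, 44, 47 and 42.6 at 10 months and 43, 34.9 and 30.4 at 20 months. Its 2-month libraries were above all others, and replicate 1 at 20 months lay within the 10-month range. The first step was -0.57 (SE 0.10, adjusted p = 0.00368). The second, -0.31 (SE 0.10, adjusted p = 0.0257), was -0.06 (adjusted p = 0.643) after scaling and was lost without replicate 1 or 2 at 10 months or replicate 2 or 3 at 20 months (adjusted p = 0.0542 to 0.0825), with -0.20 without replicate 3 at 20 months, the library with the muscle markers. Nsdhl, the sterol dehydrogenase of the complex, measured 11.3, 11.7 and 11.3 FPKM at 2 months, 9.45, 10 and 8.79 at 10 months and 6.87, 5.07 and 6.0 at 20 months, with no overlap between ages. It changed by -0.84 (SE 0.09, adjusted p = 3.43e-05) at 20 against 2 months, and its first step was just outside the threshold (adjusted p = 0.055) and inside it after scaling (0.0318). Hsd17b7, the ketoreductase of the complex, measured 5.63, 5.52 and 5.65 FPKM at 2 months, 4.32, 4.04 and 3.68 at 10 months and 1.88, 1.8 and 1.53 at 20 months. Its 20-month mean was 30.9% of the 2-month mean, and it fell more in the second step (-0.88, SE 0.07, adjusted p = 1.41e-05) than in the first (-0.40, SE 0.07, adjusted p = 0.00362), a difference called under the deposited scaling (adjusted p = 0.0143) and not after median-of-ratios scaling (0.139).

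The final steps of the pathway held an exception to the staircase. Ebp, the sterol isomerase, measured 6.6, 7.88 and 6.61 FPKM at 2 months, 6.71, 7.1 and 7.21 at 10 months and 4.8, 4.23 and 4.43 at 20 months. Its 2- and 10-month libraries overlapped and all 20-month libraries were lower. The change at 10 against 2 months was 0.00 (adjusted p = 0.995, and -0.03 after scaling), and that at 20 against 10 months was -0.55 (SE 0.07, adjusted p = 0.000214), or -0.33 (adjusted p = 0.0047) after scaling. Sc5d, the desaturase that comes next, measured 23.5, 22.9 and 22.7 FPKM at 2 months, 18.3, 18.5 and 16.7 at 10 months and 13, 11.8 and 10.7 at 20 months, with separate groups and a change of -0.91 (SE 0.07, adjusted p = 4.21e-06) by 20 months. Dhcr7, the reductase whose substrate is also the precursor of vitamin D, measured 21.4, 22.1 and 21.9 FPKM at 2 months, 13.3, 13 and 13.6 at 10 months and 9.14, 9.89 and 7.7 at 20 months. Its age groups were separate, with -0.67 (SE 0.07, adjusted p = 0.000281) in the first step, -0.54 (SE 0.07, adjusted p = 0.000234) in the second and -0.30 (adjusted p = 0.00775) for the second after scaling. In all, 12, 17 and 16 of the 18 sterol genes were called lower at 10 against 2, 20 against 2 and 20 against 10 months (13, 16 and 13 after scaling), and 0 were called higher, also at an unadjusted p under 0.05 in limma, with medians of -0.37, -0.89 and -0.54 (-0.40, -0.71 and -0.31). Those not called at 10 against 2 months were Acat2, Mvk, Mvd, Lss, Nsdhl and Ebp. Of these, Acat2 and Mvk were called without replicate 1 at 20 months (adjusted p = 0.0212 and 0.0435), Mvd without replicate 2 or 3 at 20 months (0.0293 and 0.013), and Nsdhl without replicate 1 or 2 at 20 months (0.0196 and 0.0157). Lss was called at 20 against 10 months without replicate 1 at 20 months (adjusted p = 0.0151).

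Genes for the supply of acetyl-CoA and NADPH were lower at 10 months. Acly, the citrate lyase that makes cytosolic acetyl-CoA, measured 76.9, 77.5 and 79.4 FPKM at 2 months, 57.5, 56.3 and 57.1 at 10 months and 56.6, 59 and 57 at 20 months. All 2-month libraries were above the rest, and the 10- and 20-month libraries overlapped. Its log2 change was -0.44 (SE 0.03, adjusted p = 2.81e-05) at 10 and -0.43 (SE 0.03, adjusted p = 2.80e-06) at 20 against 2 months, the latter being -0.22 (adjusted p = 0.00038) after scaling. From 10 to 20 months it was 0.01 (SE 0.03, adjusted p = 0.711) under the deposited scaling and 0.27 (adjusted p = 0.000178), a rise, after median-of-ratios scaling. Me1, the malic enzyme that makes NADPH in the cytosol and the most abundant fatty acid member, measured 90.5, 87.5 and 88.1 FPKM at 2 months, 69.8, 68 and 66.2 at 10 months and 58, 63.2 and 59 at 20 months. Its groups did not overlap. The first step was -0.38 (SE 0.04, adjusted p = 0.000212), and the second was -0.18 (SE 0.04, adjusted p = 0.0036) but 0.08 (adjusted p = 0.155) after scaling. Acss2, which makes acetyl-CoA from acetate, measured 6.27, 5.85 and 6.19 FPKM at 2 months, 4.38, 4.94 and 5.39 at 10 months and 4.04, 3.28 and 3.34 at 20 months. Groups were separate, and the change was -0.65 (SE 0.08, adjusted p = 0.000134) at 20 months. Its first step (-0.27, SE 0.08, adjusted p = 0.0407) was lost when any 2-month library or replicate 1 or 2 at 10 months was left out (adjusted p = 0.0709 to 0.135).

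The enzymes that build and activate the fatty acid chain itself were not called at 10 months and were lower at 20 months. Acaca, acetyl-CoA carboxylase, the committed step, measured 5.1, 4.72 and 4.71 FPKM at 2 months, 4.5, 5.13 and 4.98 at 10 months and 3.08, 2.98 and 3.08 at 20 months. The younger groups overlapped, and the 20-month libraries were all lower. The change was 0.01 (SE 0.06, adjusted p = 0.959), or -0.03 (adjusted p = 0.784) after scaling, at 10 months and -0.53 (SE 0.06, adjusted p = 5.98e-05) at 20 months. Fasn, fatty acid synthase, measured 4.06, 4.24 and 4.49 FPKM at 2 months, 4.63, 4.5 and 4.68 at 10 months and 2.9, 3.22 and 3.36 at 20 months. Its 10-month libraries were slightly above the 2-month ones and its 20-month libraries below both. The first step did not pass (0.09, adjusted p = 0.308, and 0.06 after scaling), and the second was -0.43 (SE 0.06, adjusted p = 0.000314), or -0.23 (adjusted p = 0.0175) after scaling. Acsl3, an acyl-CoA synthetase that activates fatty acids at the endoplasmic reticulum and lipid droplets, measured 18.1, 18.1 and 17.5 FPKM at 2 months, 17.5, 17 and 16.8 at 10 months and 11.7, 11.1 and 11.3 at 20 months. Its 2- and 10-month libraries overlapped, the change between them was not called (-0.06, adjusted p = 0.256, and -0.10, adjusted p = 0.076 after scaling), and all 20-month libraries were lower, with -0.62 (SE 0.04, adjusted p = 1.47e-06) at 20 against 2 months and -0.41 (adjusted p = 1.49e-05) after scaling.

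Desaturases held the largest changes of the fatty acid genes. Fads2, the desaturase at the entry to the synthesis of highly unsaturated fatty acids (ENSRNOG00000020440, chromosome 1, 226114413 to 226152524 as the table gives it), measured 22.6, 22.4 and 20.3 FPKM at 2 months, 11.4, 9.74 and 9.44 at 10 months and 6.0, 5.22 and 5.72 at 20 months. All groups were far apart, and its promoter window held none of the motifs searched. It fell to 46.8% of its 2-month mean at 10 months and 25.9% at 20 months, with log2 changes of -1.03 (SE 0.08, adjusted p = 4.19e-05) and -1.78 (SE 0.08, adjusted p = 2.29e-07), the lowest values among the 34 members (-1.58 at 20 months after scaling). Fads1, the next desaturase of that route, which lies near it on the same chromosome (ENSRNOG00000020480, chromosome 1, 226234074 to 226249138 as the table gives it), measured 9.62, 9.95 and 8.98 FPKM at 2 months, 4.83, 4.89 and 4.65 at 10 months and 3.48, 2.59 and 3.94 at 20 months. The groups were separate, the 20-month libraries being the most spread. It was at 50.3% and 35.1% of its 2-month mean, with -0.86 (SE 0.11, adjusted p = 0.000479) and -1.29 (SE 0.11, adjusted p = 7.15e-06), and its second step of -0.43 (SE 0.11, adjusted p = 0.00607) was -0.23 (adjusted p = 0.106) after scaling. Elovl5, the elongase that acts between Fads2 and Fads1, measured 50.2, 48.1 and 49.6 FPKM at 2 months, 38.8, 38.3 and 37.4 at 10 months and 34.5, 34.6 and 37.2 at 20 months. Its groups did not overlap, although 20-month replicate 3 came close to the 10-month libraries. Its first step was -0.36 (SE 0.04, adjusted p = 0.000264), and the second was small, -0.10 (SE 0.04, adjusted p = 0.0421), not called without 8 of the 9 libraries in turn (adjusted p = 0.053 to 0.124), and turned to a rise of 0.15 (adjusted p = 0.0164) after scaling.

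Scd, the desaturase that makes oleate from stearate, followed another course. It measured 6.87, 6.67 and 6.7 FPKM at 2 months, 3.22, 3.24 and 2.87 at 10 months and 3.61, 4.05 and 5.34 at 20 months. Every 10-month library was below every 20-month library, and all 6 were below the 2-month libraries. It fell by 10 months (-0.92, SE 0.11, adjusted p = 0.000372) and rose from 10 to 20 months (0.36, SE 0.11, adjusted p = 0.0144, and 0.57, adjusted p = 0.00263 after scaling). The rise was lost at the threshold without replicate 3 at 10 months (adjusted p = 0.0512), and replicate 3 at 20 months, the library with the muscle markers, had the highest 20-month value. Without that library the rise was smaller, 0.23 on the log2 scale, and still called. Its close relative Scd2 was far more abundant per length, at 471 ± 1.05, 302 ± 1.64 and 248 ± 19.4 FPKM at 2, 10 and 20 months (SD, n = 3), and fell by 10 months (-0.64, adjusted p = 4.74e-05) and by 20 months (-0.93, adjusted p = 6.93e-07). The authors' quantification may split reads between such related genes. Of the 10 tested fatty acid genes 7, 10 and 8 were called lower at 10 against 2, 20 against 2 and 20 against 10 months (7, 10 and 4 after scaling), and 0, 0 and 1 were called higher (0, 0 and 3). Their medians were -0.37, -0.55 and -0.40 (-0.41, -0.36 and -0.20).

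**Figure D2:**
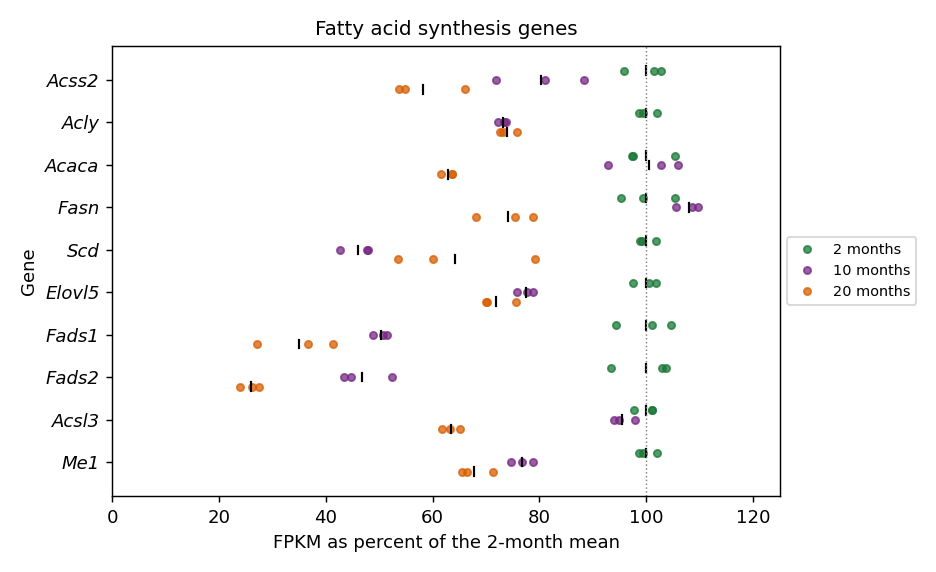
Level of each fatty acid gene in each library, as a percent of that gene's mean FPKM at 2 months; each point is 1 library, coloured by age, and the black ticks are the means of 3 libraries. Fads2 ends at 25.9%, Acaca, Fasn and Acsl3 stay near 100% at 10 months, and Scd is lower at 10 than at 20 months.

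The regulators did not share 1 direction. Insig1, which retains the Scap-SREBP complex in the endoplasmic reticulum and is itself transcribed under SREBPs (ENSRNOG00000006859, chromosome 4, 342302 to 350515 as the table gives it), measured 116, 118 and 114 FPKM at 2 months, 120.3, 118 and 116 at 10 months and 151, 184 and 162 at 20 months. The 2- and 10-month libraries overlapped, and all 20-month libraries were higher, replicate 2 most. Its promoter window held 1 E-box and 1 inverted CCAAT box. Its change at 10 months did not pass (0.02, adjusted p = 0.822, and -0.02 after scaling), and it rose by 20 months, with 0.50 (SE 0.06, adjusted p = 8.66e-05) and 0.72 (adjusted p = 1.76e-05) after median-of-ratios scaling. It is the member called higher at 20 against 2 months, and it kept that call without each library in turn. Insig2, its relative that is not driven by SREBPs, measured 17.5, 18.3 and 18.5 FPKM at 2 months, 18.4, 17.3 and 17.8 at 10 months and 14.7, 13.5 and 14.8 at 20 months. All 20-month libraries were below the others, with -0.31 (SE 0.05, adjusted p = 0.000306), a call that was lost after median-of-ratios scaling (-0.11, adjusted p = 0.0717).

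The SREBP genes also differed. Srebf2, the SREBP gene best known for driving sterol genes, measured 32.2, 31.5 and 32.4 FPKM at 2 months, 28.7, 28.3 and 29 at 10 months and 21.9, 19.6 and 16.5 at 20 months. Groups did not overlap, and the 20-month libraries ranged widely. Its first step did not pass (-0.16, adjusted p = 0.181) but did without replicate 3 at 20 months (adjusted p = 0.0245), with only the 2 ages compared in the fit (0.00362) and with array weights (0.0251). The second was -0.55 (SE 0.08, adjusted p = 0.000331) and -0.31 (adjusted p = 0.00866) after scaling. Srebf1, the SREBP gene best known for fatty acid genes, measured 15.3, 15.2 and 15 FPKM at 2 months, 13.6, 14 and 15.6 at 10 months and 12.8, 15 and 12.6 at 20 months. The ages overlapped, 20-month replicate 2 being as high as the 2-month libraries. Its change from 2 to 20 months was -0.16 (SE 0.07, adjusted p = 0.068), called without that replicate (-0.24, adjusted p = 0.00642), and 0.04 (adjusted p = 0.639) after scaling. Without the same replicate Srebf1 was also called at 20 against 10 months (adjusted p = 0.0333). Scap, the sterol-sensing escort protein, measured 8.95, 9.97 and 8.58 FPKM at 2 months, 8.16, 8.31 and 7.99 at 10 months and 6.27, 6.62 and 5.79 at 20 months. It was lower in all 20-month libraries, with -0.49 (SE 0.06, adjusted p = 0.000135) and -0.30 (adjusted p = 0.00306) after scaling. Stard4, a soluble carrier that moves cholesterol between membranes and is itself an SREBP target, measured 5.27, 4.95 and 5.19 FPKM at 2 months, 3.84, 3.75 and 3.92 at 10 months and 2.61, 2.6 and 2.51 at 20 months. Its libraries formed 3 tight bands, with -0.34 (SE 0.05, adjusted p = 0.00154) in the first and -0.44 (SE 0.05, adjusted p = 0.000112) in the second step, the latter being -0.24 (adjusted p = 0.00459) after scaling.

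**Figure D3:**
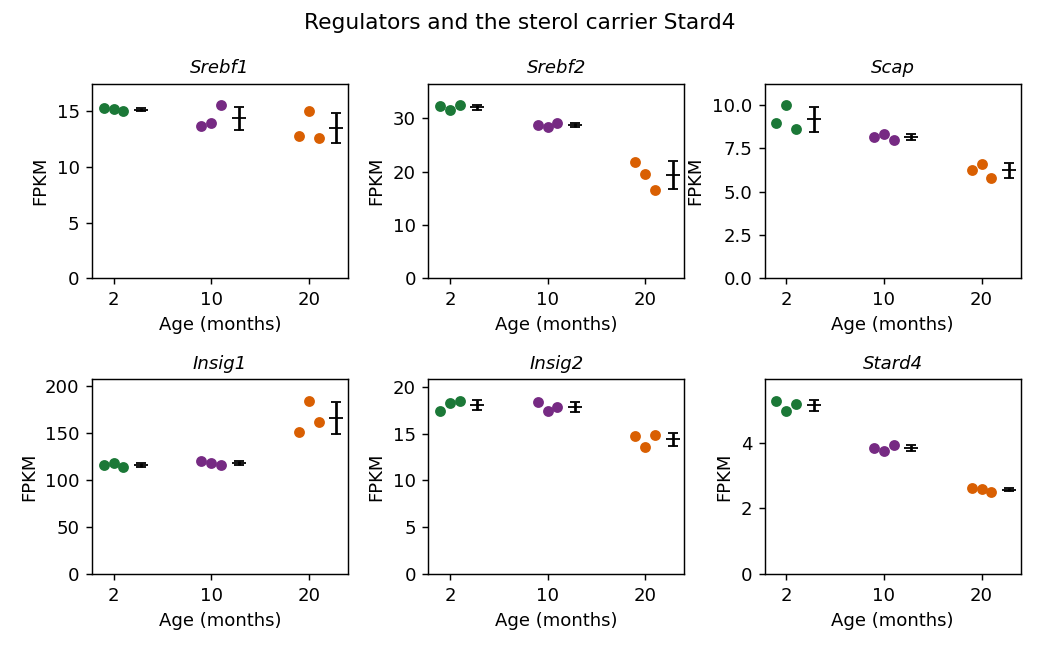
FPKM of the 5 regulators and of the carrier Stard4 in each library, by age; points are libraries, and the bar beside them is the mean ± SD of the 3 libraries of an age. Insig1 is higher in all 20-month libraries (151 to 184 FPKM) than at the younger ages, the Srebf1 ages overlap, and the other 4 genes are lowest at 20 months.

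Isoform use could be tested for 11 isoforms of 5 members, by limma on the log2 of an isoform's FPKM over that of the gene's other isoforms. At 20 against 2 months 2 of the 11 were called, beside 11.1% of the 2765 isoforms tested in all, and the same number at 20 against 10 months, beside 7.52%. At 10 against 2 months limma called 0, beside 0.253%, and 1 was at an unadjusted p under 0.05. Both called isoforms belong to Srebf1 and mirror each other. The minor isoform, ENSRNOT00000004753, made up 20.3, 22.2 and 16.6% of the gene's FPKM at 2 months, 12.2, 23.3 and 26.5% at 10 months and 2.02, 4.3 and 9.24% at 20 months. The 20-month shares were below all others, with adjusted p = 0.043 against 2 and 0.05 (just under the threshold) against 10 months. The calls sit at the threshold: in both comparisons they were lost with the replicate block, with a summed FPKM minimum of 1 and without each 2-month library in turn, and the call against 10 months held only without replicate 3 at 20 months among the libraries left out. For Scap, whose gene level was steady within ages, the 2 near-identical isoforms traded places between 0 and 100% from library to library, so that no isoform change is read from it.

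**Figure D4:**
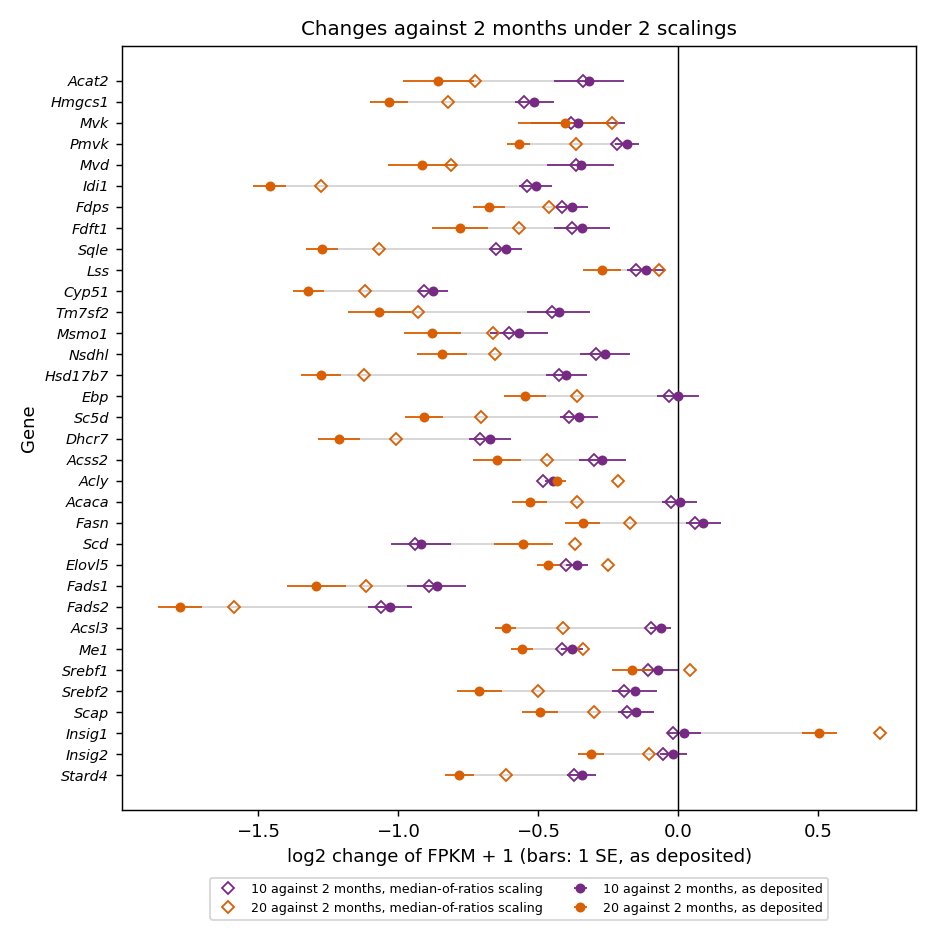
Log2 change of FPKM + 1 against 2 months for the 34 tested members, at 10 months (purple) and 20 months (orange); filled points with 1 SE bars use the deposited scaling and open diamonds the median-of-ratios scaling. Rescaling moves the 20-month values to the right, Srebf1 crosses 0, and Insig1 stands to the right at 20 months under both scalings.

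The timing of the change within the members was compared by the difference between the steps, 10 to 20 months minus 2 to 10 months, a contrast added after the data had been seen. Positive values mean that the second step was less negative, or more positive, than the first. Under the deposited scaling 6 members were higher and 9 lower, beside 5.60% and 38.7% of all tested genes, and after median-of-ratios scaling 11 were higher and 1 lower, beside 14.3% and 12.7%. The contrast depends on the scaling, since the rescaling raises the second step of every gene. Members called with the same sign under both scalings were Cyp51, Acly (0.46, adjusted p = 0.000343, and 0.75 after scaling), Scd (1.28, adjusted p = 0.000978, and 1.51), Elovl5 (0.26, adjusted p = 0.0146, and 0.54), Me1 (0.20, adjusted p = 0.0396, and 0.49), Insig1 (0.46, adjusted p = 0.0083, and 0.75) and, in the opposite sense, Acsl3 (-0.49, adjusted p = 0.000728, and -0.22). For Insig1 the value reflects the late rise, and for Scd an early fall together with the called rise that followed. Cyp51, Acly, Elovl5 and Me1 fell early, and after scaling Acly and Elovl5 also rose from 10 to 20 months (0.27 and 0.15). The calls of Elovl5 (adjusted p = 0.0637 without replicate 3 at 10 months) and Me1 (0.0570 to 0.148 without each of the 6 libraries of 2 and 10 months in turn) were not stable. The later fall of Ebp, Acaca and Fasn (-0.54, -0.54 and -0.52) was called under the deposited scaling (adjusted p = 0.00876, 0.00393 and 0.005) and not after median-of-ratios scaling, where the differences were -0.29, -0.31 and -0.29 (adjusted p = 0.113, 0.0613 and 0.0937).

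Genes of neighbouring pathways were counted beside the members. The counts are to be read against all tested genes, of which 19.0% were higher and 11.4% lower at 10 months, and 18.6% higher and 49.6% lower at 20 months, against 2 months (30.4% and 32.2% at 20 months after scaling). Of 11 other genes for the processing and turnover of SREBP and its partners, 1 was higher and 0 lower at 10 months, and 1 was higher and 7 lower at 20 months against 2 months (5 and 5 at 20 months after median-of-ratios scaling). Rnf145, a ubiquitin ligase of this list, rose from 29.6 ± 1.14 to 40.3 ± 1 FPKM by 10 months (0.43, adjusted p = 0.000132) and was 0.22 (adjusted p = 0.00107) at 20 months, against 0.40 (adjusted p = 0.000338) and 0.44 (adjusted p = 3.39e-05) after scaling. Erlin1 and Erlin2, membrane proteins of sterol-regulated degradation, fell by 20 months (-1.05, adjusted p = 2.48e-06 and -0.62, adjusted p = 5.93e-05). Of 12 genes on other branches from isoprenoids, 3 were higher and 2 lower at 10 months and 0 and 6 at 20 months (1 and 3 after scaling), so that the counts of lower genes were near the shares of all tested genes. The farnesyltransferase subunits Fntb and Fnta fell by 20 months, with -0.66 (adjusted p = 1.32e-05) and -0.50 (adjusted p = 6.09e-06), the latter being -0.28 (adjusted p = 0.000151) after scaling. Pdss1, for the tail of ubiquinone, and Rce1, a protease for prenylated proteins, rose at 10 months (0.34, adjusted p = 0.0155 and 0.28, adjusted p = 0.0423). The call of Rce1 was lost after scaling (adjusted p = 0.0614) and without 6 of the 9 libraries in turn (adjusted p = 0.0532 to 0.135), and that of Pdss1 without replicate 2 at 2 or 10 months (adjusted p = 0.0600 and 0.0626).

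Sterol handling beyond synthesis went both ways. Of 14 tested genes for esterification, trafficking and efflux, 4 were higher and 4 lower at 10 months, and 2 were higher and 10 lower at 20 months (3 and 6 after scaling). Soat1, which esterifies cholesterol for storage, fell from 23.9 ± 1.62 FPKM at 2 months to 11.7 ± 0.784 at 20 months (-0.97, adjusted p = 1.27e-06), and Scarb1, a receptor for lipoprotein cholesterol, fell by 1.0 (adjusted p = 9.47e-05). Abca1, the pump that exports cholesterol, was 3.02 ± 0.209, 4.81 ± 0.0891 and 4.95 ± 0.208 FPKM at 2, 10 and 20 months, higher by 10 months (0.53, adjusted p = 0.000301) and by 20 months (0.57, adjusted p = 3.33e-05). Mylip, a ubiquitin ligase that removes lipoprotein receptors, rose alike, from 23.0 ± 0.533 to 34.6 ± 0.466 FPKM (0.57, adjusted p = 2.66e-06, and 0.78, adjusted p = 5.27e-07 after scaling). Both Abca1 and Mylip are known targets of the oxysterol receptors, whose part in these changes was not tested.

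Among 19 other tested genes of fatty acid synthesis and elongation, 2 were higher and 3 lower at 10 months and 3 were higher and 13 lower at 20 months (5 and 11 after scaling). Acacb, the mitochondrial carboxylase whose product restrains fatty acid oxidation, rose from 0.394 ± 0.0201 to 1.65 ± 0.224 FPKM by 20 months (0.93, adjusted p = 2.01e-05), a low level against Acaca. Every 2-month library of Acacb was under 1 FPKM, so that it passed the filter only through older libraries, where it was higher. Its called rise is thus not independent of the filter. Hacd1, a dehydratase of elongation, rose too (0.80, adjusted p = 0.00214), a call kept without each library in turn, the one with the muscle markers included (0.68 to 0.96, adjusted p = 0.000676 to 0.00998). Oxsm, of the mitochondrial synthesis, fell (-0.88, adjusted p = 5.66e-05). Of 14 glycerolipid genes 1 was higher and 2 lower at 10 months and 2 were higher and 9 lower at 20 months (3 and 7 after scaling). Dgat2 and Agpat1, of triglyceride and phospholipid assembly, fell (-1.03, adjusted p = 5.36e-05 and -0.90, adjusted p = 1.17e-07 at 20 months), while the droplet coat gene Plin2 and the phosphatase gene Lpin3 rose (0.65, adjusted p = 5.50e-05 and 0.94, adjusted p = 0.000275). Lpin3 stood near the filter at 2 months, at 0.875 to 1.14 FPKM.

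In fatty acid oxidation more genes were called higher than lower against 2 months, and between 10 and 20 months the order depended on the scaling. Of 23 tested genes, 8 were higher and 1 lower at 10 months and 10 were higher and 4 lower at 20 months against 2 months (16 and 4 after scaling), with medians of 0.08 and 0.07 (0.05 and 0.28). At 20 against 10 months 4 were higher and 7 lower, beside 11.4% and 53.3% of all tested genes, and after scaling 12 were higher and 3 lower, beside 25.9% and 26.6%. Cpt1a, the gate for fatty acids into mitochondria, was 0.663 ± 0.0461, 1.72 ± 0.253 and 1.69 ± 0.37 FPKM at 2, 10 and 20 months (0.71, adjusted p = 0.00216 and 0.68, adjusted p = 0.00064). Every 2-month library of Cpt1a was under 1 FPKM, so that it passed the filter only through the older libraries, where it was higher. Its called rises, and its place in the counts above, are thus not independent of the filter. Hsd17b4, a peroxisomal enzyme, rose from 40.6 ± 1.36 to 66.7 ± 7.03 FPKM (0.70, adjusted p = 2.02e-05). Cpt2, the inner membrane partner of Cpt1a, and the receptor gene Ppard fell by 20 months (-0.79, adjusted p = 9.86e-05 and -0.98, adjusted p = 7.91e-06). The difference between this list and the synthesis genes was not tested. Each call at 20 against 2 months of a gene named from these neighbouring pathway lists also passed after median-of-ratios scaling.

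**Figure D5:**
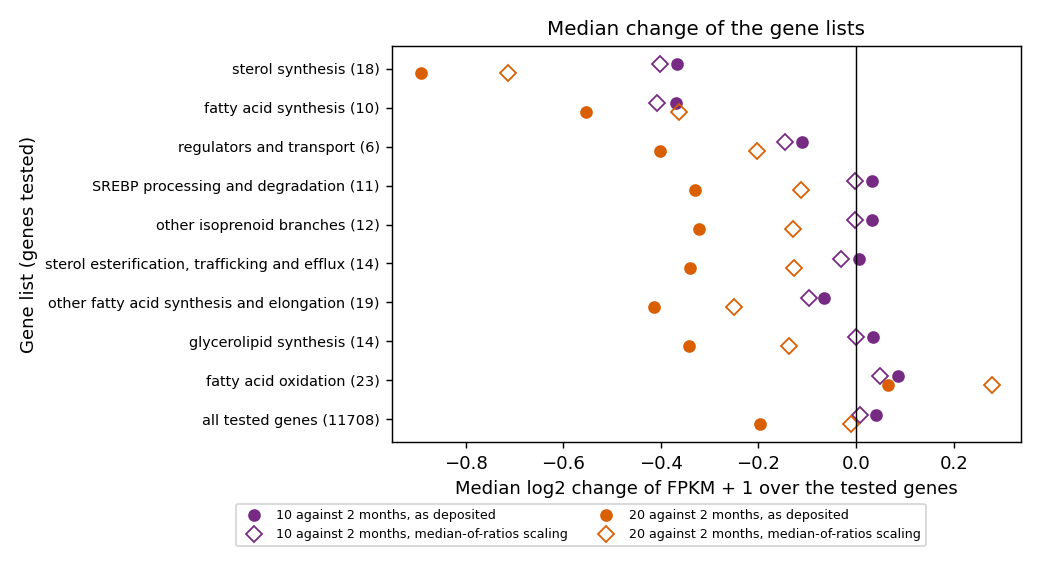
Median log2 change of FPKM + 1 against 2 months over the tested genes of each list, at 10 months (purple) and 20 months (orange), with the deposited scaling as filled points and median-of-ratios scaling as open diamonds. The sterol list has the lowest 20-month median (-0.89, and -0.71 after scaling) of the lists drawn, and fatty acid oxidation is the list whose 20-month medians are above 0 under both scalings.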

How the data were processed

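The members, the role and neighbour lists, the marker lists and the tests were chosen with earlier results of these data known. Per the file headers, the authors deposited a gene table of FPKM and an isoform table of FPKM and read coverage for each library, and counts were not used here. Per the submitters' processing notes the tools were cutadapt (1.9), HISAT2 (2.0.4) and StringTie (1.3.4d), with DESeq2 and edgeR named too, in no stated role. Genome build and annotation of the tables: not given in the sources used here. The tables' coordinates were never combined with the GRCr8 windows. Aligned bases per library came from the constant ratio of deposited FPKM to coverage.

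A gene was tested if its FPKM reached 1 in 3 or more of the 9 libraries, which 11708 genes did. The test was limma (3.58.1, R 4.3.3) with a trended prior variance on log2 of FPKM with 1 added, as 1 model of the 3 ages. Adjustment followed Benjamini and Hochberg per comparison over all tested genes, and a call was an adjusted p under 0.05. The fit was tested on simulated data. Isoform use was tested where a gene had 2 or more isoforms and its summed FPKM averaged 5 or more, for isoforms whose mean share was 10 to 90%, after adding 0.5 to both parts of the ratio. Figures were drawn with Python 3.11.15 and matplotlib 3.10.9.

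Full statistics are given for members whose largest log2 change over the 3 comparisons reached 0.5 in size, that went against their role group or that regulate the pathway. From each neighbour list up to 2 called genes per direction with the largest change against 2 months are named. Alternatives were pseudocounts of 0.1 and 5, no filter, a mean filter, median-of-ratios scaling, quantile normalization, a fit of the 2 compared ages alone, array weights, a replicate block and each library left out.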

Additional observations from a re-analysis of the deposited data

How the results depend on the processing

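The counts of members called lower at 10 against 2, 20 against 2 and 20 against 10 months were 17 to 23, 31 to 32 and 26 to 28 when each library was left out in turn, and 24, 30 and 19 after quantile normalization. With only the 2 ages compared they were 25, 31 and 26, and with array weights 26, 31 and 28: both alternatives gave Acat2, Mvk, Mvd, Nsdhl and Srebf2 a call at 10 against 2 months, and array weights Scap too. The count called higher at 20 against 10 months, 2, was 4 after median-of-ratios scaling and 1 to 2 with a library left out. For the second step minus the first, median-of-ratios scaling gave 11 higher and 1 lower, quantile normalization 1 lower, and leaving out each library 4 to 8 higher and 5 to 10 lower. The isoform calls at 20 against 2 months, 2, were 0 with a summed FPKM minimum of 1 and 0 to 3 with a library left out, and those at 20 against 10 months, 2, were 0 with a pseudocount of 0.1, 0 with a minimum of 1 and 0 to 2 with a library left out. No pairing by the replicate numbers in the labels was seen. Same-numbered libraries of different ages had deviations correlated at -0.04 to 0.05, beside -0.07 to 0.06 for differently numbered ones. With 3 libraries per age these values cannot show whether the numbers pair the libraries. With the replicate block 19, 31 and 28 members were called lower in the 3 comparisons and 0 isoforms in each.

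Signs turned mainly where a change was near 0. After median-of-ratios scaling and quantile normalization the values were -0.0261 and -0.0645 for Acaca at 10 against 2 months, 0.0421 and 0.0141 for Srebf1 at 20 against 2 months, and 0.0117 and 0.0324 for Pdss1 and 0.0876 and 0.0782 for Rce1 in the same comparison. At 20 against 10 months they were 0.148 and 0.173 for Mvk, 0.0808 and 0.0719 for Lss, 0.147 and 0.0443 for Elovl5, and 0.15 and 0.127 for Srebf1. Median-of-ratios scaling alone turned Insig1 at 10 against 2 months (-0.0164) and Me1 at 20 against 10 months (0.0766). With a library left out, Ebp ranged from -0.039 to 0.0738, Acaca from -0.0269 to 0.0517 and Insig2 from -0.0398 to 0.00247 at 10 against 2 months, and Mvk from -0.238 to 0.109 and Acly from -0.00439 to 0.0251 at 20 against 10 months. Apart from the scalings, the cause of these turns was not tested. Under the block the differences between ages kept their values, and of the members' calls in the 3 comparisons Acss2 at 10 against 2 months (adjusted p = 0.0716) and Elovl5 at 20 against 10 months (0.0651) were lost and Lss at 20 against 10 months (0.0419) was gained. For the second step minus the first the block gave 5 higher and 7 lower, and Me1 lost its call (adjusted p = 0.0605). The lowest members, Mvd and Acat2, rested on 3.04 to 17.6 and 7.75 to 31.5 kilobases of aligned sequence per library, which limits what their single values show.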
